A study of Homo sapiens with 18 samples.

Results

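CXCL9, CXCL10, CXCL11, IDO1, IRF1, GBP1, GBP2, GBP4 and GBP5, 9 genes that are textbook targets of interferon gamma, were followed in human umbilical vein endothelial cells (HUVEC) that had been exposed to vesicles of T cells. The members were named by symbol, and each was read from the probe set with the highest mean that carries its symbol alone. A value was found for 8 of the 9, out of 18417 genes measured on the array. GBP1 was on the array only through a probe set that the annotation assigns jointly to GBP1P1, GBP3 and GBP1, so no GBP1 level is given. Interferon gamma binds its receptor and signals through Janus kinases, and among the genes it switches on is IRF1, a transcription factor that acts on many further promoters. Type I interferons use a related pathway that ends at interferon-stimulated response elements. In endothelium the response includes chemokines that draw activated T cells through the receptor CXCR3, guanylate-binding proteins that defend against intracellular microbes, and IDO1, the enzyme that starts the breakdown of tryptophan.

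The study comprised 18 Affymetrix arrays in 6 groups of 3. For 3 days HUVEC were exposed to extracellular vesicles (EVs) that antibody-coated beads had pulled down by the tetraspanin CD63 or by MHC class 1 (MHC1). The EVs came from JinB8, a derivative of Jurkat that lacks the receptor CD47, or from wild-type Jurkat, a human T cell leukaemia line. The groups were thus JinB8 CD63+ EVs, JinB8 MHC1+ EVs, Jurkat CD63+ EVs, Jurkat MHC1+ EVs, beads with immunoglobulin G (IgG) alone, and untreated cells. The labels name no genetic change of the HUVEC and no added interferon or other cytokine in any group. JinB8 is a single mutant line, and by the protocols the conditioned medium of several flasks was pooled before EVs were purified, so the arrays of an EV group may share a preparation. For 5 of the 6 JinB8 arrays the free text gives a number other than 8 after JINB, while the name in brackets reads JINB8 for all 6, and all were treated as JinB8. No label ties the 3 arrays of a group to separate cultures, and a p-value here reflects only how far these samples scatter, possibly for technical reasons.

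The promoters are shown first because the named genes differ in the regulatory letters just upstream of their starts. RefSeq sequence of build GRCh38.p14 was at hand for 6 of the 9 genes, each on the minus strand, and the 250 bases before the start of 5 of them are printed 5′ to 3′. They lie at chr4:76023498-76023747 for CXCL10, chr4:76036071-76036320 for CXCL11, chr4:76007510-76007759 for CXCL9, chr5:132490774-132491023 for IRF1 and chr1:89198943-89199192 for GBP4. Capitals mark a match to 1 of 3 of the 4 searched motifs, read on both strands. The core of the interferon-stimulated response element was searched as GAAA and GAAA with any 2 bases between them, the gamma-activated site as TTCNNNGAA, and the NF-kB site as GGG and TTTCC with any 2 bases between them. The TATA motif, TATAAA, was searched too and is not in capitals. Each search took 1 strict form, so looser forms of these sites, including those of NF-kB, stay in lower case.
CXCL10: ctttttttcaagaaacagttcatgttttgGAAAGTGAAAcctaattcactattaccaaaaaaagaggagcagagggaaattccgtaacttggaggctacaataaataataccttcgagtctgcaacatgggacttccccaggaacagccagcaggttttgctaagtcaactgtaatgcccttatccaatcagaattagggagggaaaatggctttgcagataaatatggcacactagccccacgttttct
CXCL11: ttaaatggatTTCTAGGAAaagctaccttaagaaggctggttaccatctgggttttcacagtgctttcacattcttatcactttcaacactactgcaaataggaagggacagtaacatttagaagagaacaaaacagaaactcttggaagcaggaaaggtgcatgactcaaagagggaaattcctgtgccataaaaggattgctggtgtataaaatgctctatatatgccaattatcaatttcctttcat
CXCL9: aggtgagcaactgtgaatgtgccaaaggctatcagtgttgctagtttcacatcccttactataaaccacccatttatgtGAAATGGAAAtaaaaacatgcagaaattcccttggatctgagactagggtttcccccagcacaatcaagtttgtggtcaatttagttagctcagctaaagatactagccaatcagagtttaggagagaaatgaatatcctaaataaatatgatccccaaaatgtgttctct
IRF1: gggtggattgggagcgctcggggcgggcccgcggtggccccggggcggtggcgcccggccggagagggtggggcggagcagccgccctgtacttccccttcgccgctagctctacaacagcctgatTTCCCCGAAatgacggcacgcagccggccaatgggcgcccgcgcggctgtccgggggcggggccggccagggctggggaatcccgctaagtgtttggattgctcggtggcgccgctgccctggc
GBP4: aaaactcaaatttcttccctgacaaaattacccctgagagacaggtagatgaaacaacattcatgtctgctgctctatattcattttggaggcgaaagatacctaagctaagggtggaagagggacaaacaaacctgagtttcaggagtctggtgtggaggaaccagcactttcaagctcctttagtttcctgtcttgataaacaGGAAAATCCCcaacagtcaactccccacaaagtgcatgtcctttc
CXCL10 held GAAAGTGAAA at -221 to -212 from its start, and CXCL9 held GAAATGGAAA at -171 to -162. CXCL11 held the gamma-activated letters TTCTAGGAA at -240 to -232, and IRF1 held TTCCCCGAA at -124 to -116. GBP4 held the NF-kB letters on the opposite strand, GGAAAATCCC at -45 to -36. The window of GBP1, at hand but not printed, held the response element core on the opposite strand, TTTCAGTTTC at -127 to -118. The TATA letters were at -42 to -37 in CXCL11 and at -191 to -186 in CXCL9. Of 35116 promoters in the same table, 3.02% held the response element core, 6.57% the gamma-activated letters, 1.73% the NF-kB letters and 10.7% the TATA letters. A match describes the letters in this window and is not a measured binding site. A gene without a match may still hold a looser form of the site. By the same annotation CXCL9, CXCL10 and CXCL11 lie close together on chromosome 4, and GBP2, GBP4 and GBP5 lie close together on chromosome 1.

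The quality of the arrays touches every value given here. In 16 arrays the mean level of 12 endothelial markers, among them PECAM1, CDH5 and VWF, lay between 9.28 and 9.47, and the SD over all probe sets between 2.01 and 2.25. IgG bead replicate 3 and untreated replicate 3 stood apart, with an endothelial marker mean of 6.47 in the bead array and 7.29 in the untreated array. Their SD was 1.57 in the bead array and 1.56 in the untreated array, and their median correlation with the other arrays was 0.64 and 0.65, while no pair among the other 16 arrays lay below 0.93. The mean of 11 T cell markers was 5.39 in the bead array and 5.54 in the untreated array, against 4.19 to 4.76 in the 16 arrays. That of 10 monocyte and dendritic cell markers was 4.80 and 4.78, against 4.16 to 4.61. That of 9 fibroblast and smooth muscle markers was 5.40 and 5.80, against 4.93 to 5.47. Higher values were thus not particular to the T cell list. The defining marker list of endothelium was therefore high in 16 arrays and much lower in 2. Every comparison is given with all 18 arrays and with the 16 arrays that leave these 2 out. Between the 2 and the rest stood Jurkat MHC1+ replicate 1, at an SD of 2.01 and a median correlation of 0.95, and a fit on 15 arrays leaves it out as well.

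CXCL10 and CXCL11, 2 of the 3 chemokine ligands of CXCR3, had lower mean levels in 3 of the 4 EV groups than in the concordant controls, and overlapped the controls with JinB8 MHC1+ EVs, but no difference passed the test across all genes with 18 or 16 arrays. The log2 level of CXCL10 read 5.05, 6.52 and 4.74 with JinB8 CD63+ EVs and 6.77, 7.31 and 7.01 with JinB8 MHC1+ EVs. It read 5.65, 5.95 and 6.25 with Jurkat CD63+ EVs and 3.96, 5.62 and 6.41 with Jurkat MHC1+ EVs. The bead arrays read 7.04, 6.86 and, in the discordant replicate 3, 4.02, and the untreated arrays read 6.69, 7.76 and, in replicate 3, 4.14. Every array of JinB8 CD63+, Jurkat CD63+ and Jurkat MHC1+ EVs lay below the concordant control arrays, and both discordant controls lay lower still than all but Jurkat MHC1+ replicate 1. This grouping was not a planned comparison, and the share of all genes with such a gap was not counted. Means in the 16 arrays, from low to high, were 5.33 ± 1.25 with Jurkat MHC1+, 5.43 ± 0.95 with JinB8 CD63+ and 5.95 ± 0.30 with Jurkat CD63+ EVs (SD, n = 3 each), 6.95 ± 0.13 with beads (n = 2), 7.03 ± 0.27 with JinB8 MHC1+ EVs (n = 3) and 7.23 ± 0.76 in untreated cells (n = 2). In that order the ranges of neighbours overlapped except between Jurkat CD63+ EVs and beads. Without Jurkat MHC1+ replicate 1 that group's mean was 6.02, above both CD63+ groups. The RNA came from whole cultures, so fewer cells that express a gene and less of its RNA per cell cannot be told apart.

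CXCL11 had a similar order over a narrower range. Its log2 level read 6.92, 7.64 and 6.92 with JinB8 CD63+ EVs and 7.76, 8.07 and 7.87 with JinB8 MHC1+ EVs. It read 6.89, 7.28 and 7.64 with Jurkat CD63+ EVs and 6.77, 7.03 and 7.25 with Jurkat MHC1+ EVs, against 7.82, 7.78 and 6.56 with beads and 7.47, 8.14 and 5.57 in untreated cells. JinB8 MHC1+ EVs and the concordant controls overlapped, and the 3 JinB8 MHC1+ arrays lay above all 9 arrays of the other EV groups. How many of all genes had that gap was not counted. CXCL9, the third ligand of CXCR3, lay in the lowest 25% of genes by mean level, and in the 16 arrays it ranged from 3.14 to 3.84. The discordant bead array read 3.70 and the discordant untreated array 4.43, the highest value of CXCL9. In every pair of groups compared, the arrays overlapped for CXCL9.

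**Figure D1:**
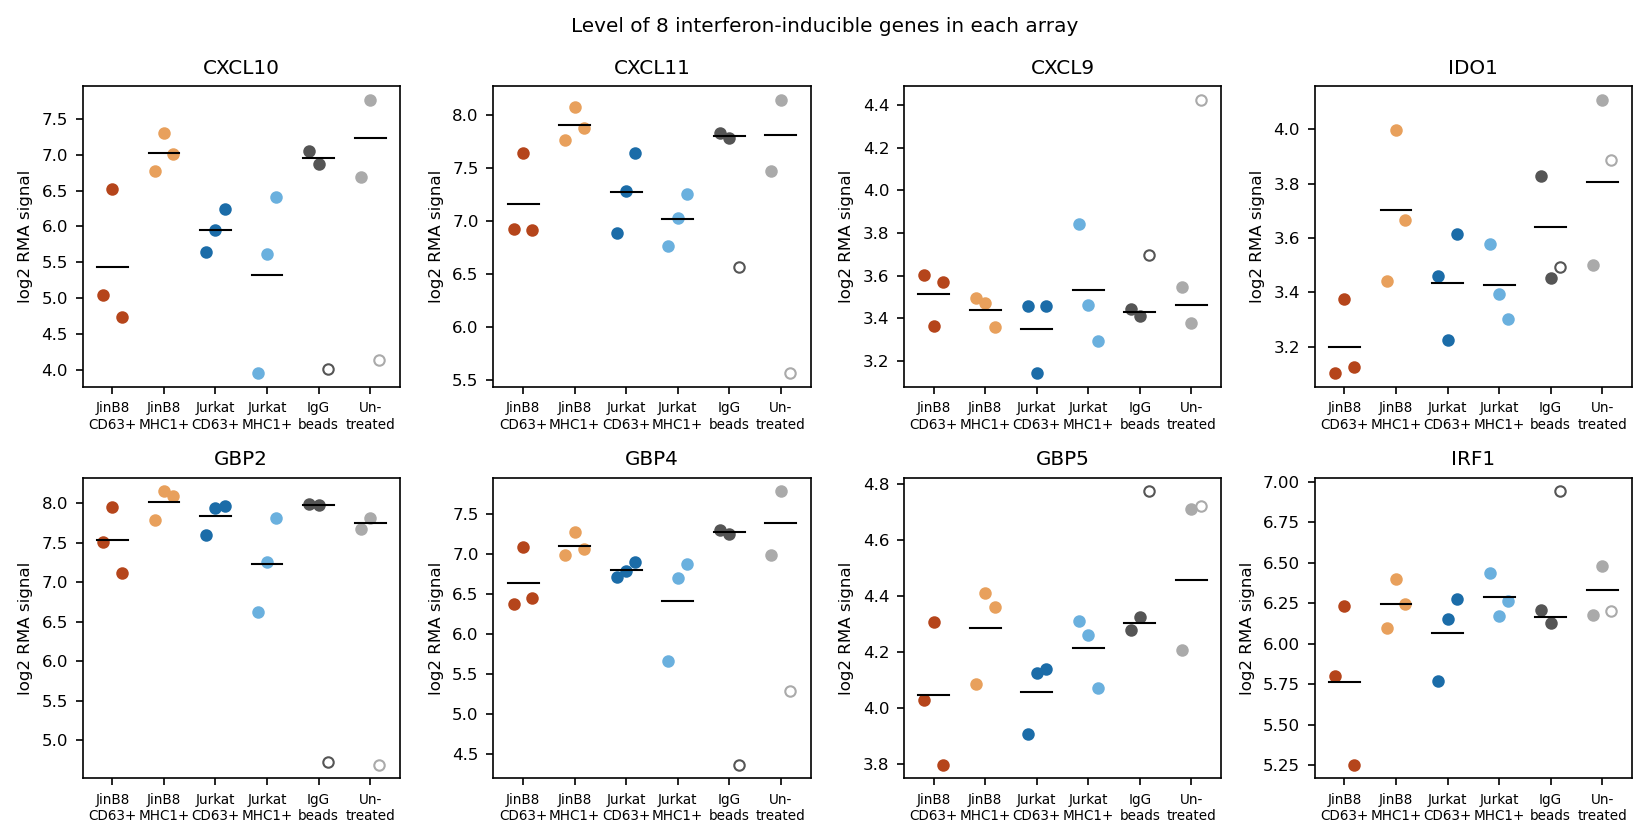
Level of 8 interferon-inducible genes in each array, on the log2 scale of RMA (vertical axis), with the 6 groups along the horizontal axis, 1 point per array and a bar at the mean. Open points are replicate 3 of the beads and of the untreated cells and are left out of the bar; CXCL10 read 4.02 and 4.14 there, against 6.69 to 7.76 in the other control arrays.

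Among the guanylate-binding proteins, large GTPases that gather on vacuoles and membranes around microbes, GBP4 and GBP2 had their lowest EV values in the same array, Jurkat MHC1+ replicate 1. GBP4 read 6.38, 7.09 and 6.45 with JinB8 CD63+ EVs and 6.98, 7.27 and 7.06 with JinB8 MHC1+ EVs. It read 6.71, 6.79 and 6.90 with Jurkat CD63+ EVs and 5.66, 6.70 and 6.88 with Jurkat MHC1+ EVs, against 7.30, 7.25 and 4.37 with beads and 6.98, 7.78 and 5.29 in untreated cells. Without the discordant arrays, Jurkat MHC1+ EVs had the lowest mean at 6.41 ± 0.66 (SD, n = 3) and untreated cells the highest at 7.38 ± 0.57 (n = 2). Without Jurkat MHC1+ replicate 1 that group's mean was 6.79, and the lowest was 6.64 ± 0.39 with JinB8 CD63+ EVs (n = 3). GBP2 read 7.52, 7.96 and 7.12 with JinB8 CD63+ EVs and 7.80, 8.16 and 8.10 with JinB8 MHC1+ EVs. It read 7.60, 7.95 and 7.97 with Jurkat CD63+ EVs and 6.62, 7.26 and 7.81 with Jurkat MHC1+ EVs, against 7.99, 7.98 and 4.72 with beads and 7.67, 7.82 and 4.69 in untreated cells. The 2 discordant arrays were lower in GBP2 and GBP4 than every other array, and the concordant bead arrays were above the concordant untreated arrays in GBP2. A second probe set of GBP2 ranged from 6.37 to 7.83 in the 16 arrays and did not follow the first in every contrast: between JinB8 CD63+ and MHC1+ EVs it differed by 0.05 ± 0.24 (SE), the first by -0.49 ± 0.25. GBP5 lay in the lowest 50% of genes, between 3.80 and 4.71 in the 16 arrays, and at 4.77 and 4.72 in the discordant bead and untreated arrays. The probe set shared by GBP1P1, GBP3 and GBP1 read 9.26, 9.93 and 9.28 in the JinB8 CD63+ arrays and 10.17, 10.29 and 10.29 in the JinB8 MHC1+ arrays. It read 9.69, 9.72 and 9.84 in the Jurkat CD63+ arrays and 9.07, 9.88 and 10.08 in the Jurkat MHC1+ arrays. Beads gave 10.35, 10.20 and 5.40 there, and untreated cells 10.01, 10.44 and 5.18. The concordant bead arrays thus lay above every array of the JinB8 CD63+, Jurkat CD63+ and Jurkat MHC1+ groups. The share of all probe sets with such a gap was not counted. For this shared probe set the 16-array difference was -0.48 ± 0.22 (SE; limma adjusted p = 1.00 over 33297 probe sets) between all EV groups and beads, the opposite sign to 1.14 ± 0.99 with 18 arrays, and -0.76 ± 0.24 (adjusted p = 0.20) between JinB8 CD63+ and MHC1+ EVs. The signals of the 3 genes cannot be told apart there.

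IRF1, the transcription factor among the 9, overlapped between all groups. It read 5.80, 6.23 and 5.25 with JinB8 CD63+ EVs and 6.09, 6.40 and 6.24 with JinB8 MHC1+ EVs. It read 5.77, 6.15 and 6.28 with Jurkat CD63+ EVs and 6.43, 6.17 and 6.26 with Jurkat MHC1+ EVs, against 6.21, 6.13 and 6.94 with beads and 6.18, 6.48 and 6.20 in untreated cells. The lowest value was that of JinB8 CD63+ replicate 3, and the highest that of the discordant bead array. IDO1 lay in the lowest 25% of genes by mean level. It read 3.10, 3.37 and 3.13 with JinB8 CD63+ EVs and 3.44, 4.0 and 3.67 with JinB8 MHC1+ EVs, and 3.22 to 3.61 in the 6 Jurkat EV arrays. Beads gave 3.83, 3.45 and 3.49 and untreated cells 3.50, 4.11 and 3.89. The 3 JinB8 CD63+ arrays of IDO1 lay below the 3 JinB8 MHC1+ arrays, as for 12.8% of all genes, and below the bead arrays, as for 2.24%.

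The 6 groups were first compared in a single test per gene. With 18 arrays limma's moderated F test called 0 of 8 named genes at a Benjamini-Hochberg adjusted p under 0.05, where 0.0109% of all genes were called. An unadjusted p under 0.05 was held by 0 of 8, where 1.09% of all genes had such a p. With 16 arrays the F test again called 0 of 8, where 0.233% of all genes were called. CXCL11, CXCL10 and GBP4 had an unadjusted p under 0.05, as did 8.07% of all genes. The smallest limma adjusted p in the F test was 0.45 for CXCL11 and 0.49 for CXCL10. CXCL11 ranked 285 and CXCL10 ranked 341 of the 18417 genes by that p.

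The comparison of all EV groups with IgG beads asks what the vesicles of both lines and both captures share, and its answer for these genes depended on the discordant bead array. With 18 arrays the log2 difference, EVs minus beads, was -0.04 ± 0.72 (SE, 12 arrays against 3) for CXCL10, -0.05 ± 0.40 for CXCL11, 0.43 ± 0.55 for GBP4 and 0.76 ± 0.65 for GBP2. With 16 arrays it was -1.02 ± 0.49 (12 arrays against 2) for CXCL10, -0.47 ± 0.22 for CXCL11, -0.54 ± 0.26 for GBP4 and -0.33 ± 0.24 for GBP2. GBP4 and GBP2 thus took the opposite sign once replicate 3 of both control groups was left out. So did CXCL9, at 0.03 ± 0.13 with 16 arrays and -0.06 ± 0.19 with 18. IRF1 was at -0.33 ± 0.21 with 18 arrays and -0.08 ± 0.19 with 16, IDO1 at -0.15 ± 0.16 and -0.20 ± 0.17, and GBP5 at -0.31 ± 0.16 and -0.15 ± 0.15. Limma called 0 of 8 with 18 arrays, where 0.00543% of all genes were called, and 0 of 8 with 16 arrays, where 0.0434% were called. At an unadjusted p under 0.05 there were 0 of 8 with 18 arrays, where 3.83% of all genes had such a p. There was 1 of 8 with 16 arrays, CXCL11, where 3.21% of all genes had such a p. The median of the 8 differences with 16 arrays was -0.27, beside 0.01 over all genes, and 7 of the 8 were negative, beside 45.9% of all genes.

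Set against the beads separately, in comparisons that share the same bead arrays, 3 EV groups had a lower mean of CXCL10, CXCL11 and GBP4 with 16 arrays, and JinB8 MHC1+ EVs lay within 1 SE of the beads. With 16 arrays the CXCL10 difference was -1.52 ± 0.58 (SE, 3 arrays against 2) for JinB8 CD63+ EVs, while JinB8 MHC1+ EVs gave 0.08 ± 0.58. It was -1.01 ± 0.58 for Jurkat CD63+ EVs and -1.62 ± 0.58 for Jurkat MHC1+ EVs. CXCL11 followed at -0.64, 0.10, -0.53 and -0.79 (SE 0.26 each) in the same sequence of groups. GBP4 stood at -0.64, -0.17, -0.48 and -0.86 (SE 0.31 each). None of these passed, and limma's adjusted p for CXCL10 was 0.66 with JinB8 CD63+, 1.00 with JinB8 MHC1+, 1.00 with Jurkat CD63+ and 0.47 with Jurkat MHC1+ EVs. With 18 arrays the CXCL10 differences were -0.54, 1.05, -0.03 and -0.65 (SE 0.91 each). Those of GBP4 had the opposite sign to the 16-array ones in all 4 groups, at 0.33, 0.80, 0.49 and 0.11 (SE 0.69 each), and those of GBP2 were 0.64, 1.12, 0.94 and 0.33 (SE 0.83 each), against -0.45, 0.03, -0.15 and -0.75 (SE 0.28 each) with 16 arrays. At the adjusted threshold limma called 0 of 8 in each of the 4 comparisons with either set of arrays. An unadjusted p under 0.05 was held with 16 arrays by 3 of 8 genes for JinB8 CD63+, 0 for JinB8 MHC1+, 0 for Jurkat CD63+ and 4 for Jurkat MHC1+ EVs. The shares of all genes at that p were 6.7%, 5.18%, 1.55% and 9.33% in the same sequence. With 18 arrays IRF1 alone had such a p, for JinB8 CD63+ EVs, where 1.48% of all genes did. The shares of all genes called with 16 arrays were 0.0923% for JinB8 CD63+, 0.212% for JinB8 MHC1+, 0.00543% for Jurkat CD63+ and 0% for Jurkat MHC1+ EVs. They were 0.00543%, 0.0434%, 0.00543% and 0% with 18 arrays. Jurkat MHC1+ replicate 1 weighed on its group. With 15 arrays the difference of Jurkat MHC1+ EVs from beads was -0.94 ± 0.45 for CXCL10 (limma adjusted p = 1.00), -0.66 ± 0.27 for CXCL11, -0.49 ± 0.24 for GBP4 and -0.45 ± 0.23 for GBP2, and CXCL11 alone had an unadjusted p under 0.05, beside 2.25% of all genes. For JinB8 CD63+ EVs 0 of 8 passed with 15 arrays, where 0.293% of all genes did, and CXCL10, CXCL11, GBP2, GBP4 and IDO1 had an unadjusted p under 0.05, as did 13.8% of all genes.

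How far the arrays of these groups overlapped was also counted, with 3 EV arrays against 2 concordant bead arrays. Every EV array lay below both bead arrays for 5 of the 8 genes with JinB8 CD63+ EVs (CXCL10, CXCL11, GBP2, GBP4 and IDO1), where this held for 12.9% of all genes. It held for 5 of 8 with Jurkat CD63+ EVs (CXCL10, CXCL11, GBP2, GBP4 and GBP5), where the share of all genes was 8.63%, and for 4 of 8 with Jurkat MHC1+ EVs (CXCL10, CXCL11, GBP2 and GBP4), where it was 11.8%. With JinB8 MHC1+ EVs it held for 0 of 8, where it held for 18.4% of all genes. These counts took GBP2 from its first probe set, by which the highest Jurkat CD63+ array read 7.97 and the lower bead array 7.98. By the second probe set the Jurkat CD63+ arrays (7.52, 7.34 and 7.41) overlapped the bead arrays (7.47 and 7.79). The JinB8 MHC1+ arrays (7.26, 7.31 and 7.35) lay below both bead arrays by that probe set. JinB8 CD63+ and Jurkat MHC1+ EVs lay below them by either. None of the 8 lay above both bead arrays in all 3 arrays of any EV group. With bead replicate 3 included, the count was 1 of 8 for JinB8 CD63+ EVs (IDO1), where the share of all genes was 2.24%, and 1 of 8 for Jurkat CD63+ EVs (GBP5), where it was 3.1%.

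**Figure D2:**
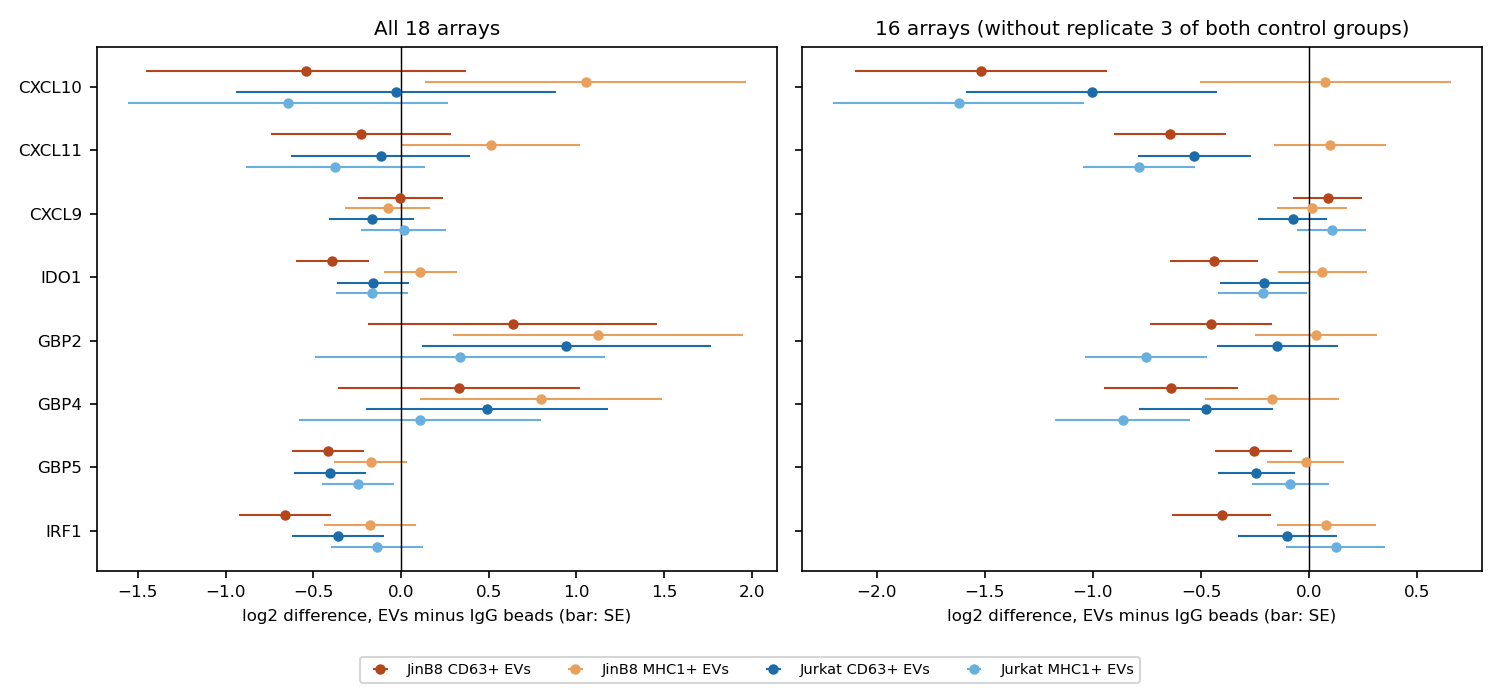
Log2 difference of each EV group from the IgG beads (horizontal axis) for 8 genes (vertical axis), with points for the fitted difference and bars for its SE, with all 18 arrays on the left and 16 arrays on the right. CXCL10, CXCL11 and GBP4 lie left of 0 in 3 EV groups on the right, GBP4 lies right of 0 in all 4 groups on the left, and CXCL10 with JinB8 MHC1+ EVs moves to 0.08 there from 1.05 on the left.

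Pooling the beads with the untreated cells gave the comparison of all EV arrays with all control arrays. With 16 arrays CXCL10 was at -1.15 ± 0.37 (SE, 12 arrays against 4; limma adjusted p = 0.55), GBP4 at -0.59 ± 0.20 (adjusted p = 0.61), CXCL11 at -0.47 ± 0.16 (adjusted p = 0.70) and IDO1 at -0.28 ± 0.13 (adjusted p = 1.00). In this contrast limma called 0 of 8, where 0.125% of all genes were called, and 4 of 8 had an unadjusted p under 0.05, as did 4.53% of all genes. With 18 arrays CXCL10 was at -0.15 ± 0.56, while GBP4, at 0.24 ± 0.42, and CXCL11, at 0.11 ± 0.31, had the opposite sign. So had GBP2, at 0.84 ± 0.51 with 18 arrays and -0.21 ± 0.18 with 16. Limma again called 0 of 8, where 0.00543% of all genes were called, and IDO1 and GBP5 had an unadjusted p under 0.05, as did 10.3% of all genes. Against untreated cells alone the 16-array difference of CXCL10 was -1.79 with JinB8 CD63+, -0.20 with JinB8 MHC1+, -1.28 with Jurkat CD63+ and -1.90 with Jurkat MHC1+ EVs (SE 0.58 each), and none passed, with limma adjusted p between 0.63 and 1.00.

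The IgG beads were compared with untreated cells to see what the capture material does without vesicles. For CXCL10 the 16-array difference, beads minus untreated, was -0.27 ± 0.64 (SE, 2 arrays against 2), for CXCL11 -0.00297 ± 0.28, for GBP4 -0.10 ± 0.34 and for GBP2 0.24 ± 0.31. IRF1 was at -0.16 ± 0.25, IDO1 at -0.16 ± 0.22, GBP5 at -0.16 ± 0.19 and CXCL9 at -0.04 ± 0.18. Each was smaller than its SE. Both bead arrays lay above both untreated arrays for GBP2 alone, 1 of 8 genes, where groups did not overlap in either direction for 29.3% of all genes. Limma called 0 of 8 with 16 arrays and with 18, where 0% of all genes were called in both. An unadjusted p under 0.05 was held by 0 of 8 in either, where 1.02% of all genes had such a p with 16 arrays and 1.11% with 18.

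Within MHC1 capture, the comparison of JinB8 with Jurkat EVs asks what the loss of CD47 in the vesicle donor changes. CXCL10, CXCL11, GBP2 and GBP4 were higher on average with JinB8 than with Jurkat MHC1+ EVs, and their differences were the largest of the 8. The difference was 1.70 ± 0.52 (SE, 3 arrays against 3, spread from 16 arrays; limma adjusted p = 0.096) for CXCL10 and 0.88 ± 0.23 (adjusted p = 0.085) for CXCL11. It was 0.79 ± 0.25 (adjusted p = 0.10) for GBP2 and 0.69 ± 0.28 (adjusted p = 0.14) for GBP4. The second probe set of GBP2 gave a smaller difference here, 0.27 ± 0.24 (limma unadjusted p = 0.28). IDO1 was at 0.28 ± 0.18, GBP5 at 0.07 ± 0.16, IRF1 at -0.04 ± 0.20 and CXCL9 at -0.09 ± 0.14. At the adjusted threshold limma called 0 of 8, where 0.386% of all genes were called, and 4 of 8 had an unadjusted p under 0.05, as did 29.6% of all genes. With the spread taken from 18 arrays the limma adjusted p of CXCL10 was 0.93, and 0 of 8 were called, where 0.0326% of all genes were. The 3 JinB8 arrays lay above the 3 Jurkat arrays for CXCL10, CXCL11 and GBP4, 3 of 8 genes, where this held for 15.5% of all genes. Here too Jurkat MHC1+ replicate 1 weighed on the size. Without it, in 15 arrays, the differences were 1.01 ± 0.41 for CXCL10, 0.76 ± 0.24 for CXCL11, 0.48 ± 0.21 for GBP2 and 0.31 ± 0.22 for GBP4. None of the 8 passed there either, where 0.315% of all genes did, and CXCL10, CXCL11 and GBP2 had an unadjusted p under 0.05, as did 12.2% of all genes.

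Within CD63 capture the differences between JinB8 and Jurkat EVs were smaller in size for CXCL10, CXCL11, GBP2 and GBP4 than within MHC1 capture. The difference, JinB8 minus Jurkat, was -0.51 ± 0.52 (SE, 3 arrays against 3, spread from 16 arrays) for CXCL10, -0.31 ± 0.25 for GBP2, -0.30 ± 0.20 for IRF1 and -0.23 ± 0.18 for IDO1. CXCL11 was at -0.11 ± 0.23, GBP4 at -0.16 ± 0.28, GBP5 at -0.01 ± 0.16 and CXCL9 at 0.16 ± 0.14. In this contrast limma called 0 of 8 with 16 arrays and with 18, where 0% of all genes were called in both. An unadjusted p under 0.05 was held by 0 of 8 in either, where 4.02% of all genes had such a p with 16 arrays and 0.255% with 18. The groups overlapped for all 8 genes, and 9.36% of all genes did not overlap. Over both captures together CXCL10 was at 0.59 ± 0.37 and CXCL11 at 0.39 ± 0.16 with 16 arrays. Limma called 0 of 8, where 0.0543% of all genes were called, and 0 of 8 with 18 arrays, where 0% were. CXCL11 alone had an unadjusted p under 0.05 with 16 arrays, as did 6.52% of all genes, and none of the 8 did with 18, where 0.706% of all genes did. With 15 arrays 0 of 8 passed and 0 had an unadjusted p under 0.05, where limma called 0.0869% of all genes and 5.6% had such a p.

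CD63+ EVs were then compared with MHC1+ EVs of the same line. For JinB8, 7 of the 8 genes were lower on average with CD63+ than with MHC1+ EVs, where 46.0% of all genes were. CXCL10 was at -1.59 ± 0.52 (SE, 3 arrays against 3, spread from 16 arrays; limma adjusted p = 0.23) and CXCL11 at -0.74 ± 0.23 (adjusted p = 0.22). IDO1 was at -0.50 ± 0.18 (adjusted p = 0.24) and IRF1 at -0.48 ± 0.20 (adjusted p = 0.28), and these 4 of 8 had an unadjusted p under 0.05, as did 16.6% of all genes. GBP2 was at -0.49 ± 0.25, GBP4 at -0.47 ± 0.28, GBP5 at -0.24 ± 0.16 and CXCL9 at 0.07 ± 0.14. At the adjusted threshold limma called 0 of 8 with 16 arrays, where 0.185% of all genes were called, and 0 of 8 with 18 arrays, where 0.00543% were. IDO1 alone had an unadjusted p under 0.05 with 18 arrays, as did 1.7% of all genes. All 3 CD63+ arrays lay below all 3 MHC1+ arrays for CXCL10, CXCL11 and IDO1, 3 of 8 genes, where this held for 12.8% of all genes. In the 15 arrays without Jurkat MHC1+ replicate 1, which takes no part in this difference but enters the common spread, CXCL10 fell by 1.59 ± 0.37 (limma adjusted p = 0.044). That was 1 of 8 genes, where 1.93% of all genes were called. JinB8 CD63+ replicate 3, which takes part in this difference and read 4.74 for CXCL10, stayed in that fit. It and Jurkat MHC1+ replicate 1 were the 2 arrays farthest from the median array SD. With each of the 18 arrays left out in turn, the CXCL10 difference ranged from -2.14 to -1.24, and 0 of 8 genes were called. In the same contrast with 16 arrays the 11 T cell markers were all positive, with a median of 0.20, and 8 of 10 monocyte and dendritic cell markers were positive, with a median of 0.21, beside 0.03 over all genes. The T cell mean read 4.45, 4.28 and 4.52 in the JinB8 CD63+ arrays, whose SD over all probe sets was 2.12, 2.19 and 2.05. It read 4.27, 4.26 and 4.22 in the JinB8 MHC1+ arrays, whose SD was 2.21, 2.24 and 2.25. Jurkat MHC1+ replicate 1, with the lowest SD of the 16 arrays, had the highest mean of both lists, 4.76 and 4.61. The part of these lists in the result was not tested.

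For Jurkat the direction was mostly the other way. CXCL10 was at 0.62 ± 0.52 (SE, CD63+ minus MHC1+, 3 arrays against 3, spread from 16 arrays), GBP2 at 0.61 ± 0.25, GBP4 at 0.39 ± 0.28 and CXCL11 at 0.26 ± 0.23. IRF1 was at -0.22 ± 0.20, CXCL9 at -0.18 ± 0.14, GBP5 at -0.16 ± 0.16 and IDO1 at 0.01 ± 0.18. The second probe set of GBP2 was at 0.39 ± 0.24. Without Jurkat MHC1+ replicate 1 the value was -0.07 ± 0.41 for CXCL10, 0.30 ± 0.21 for GBP2 and 0.01 ± 0.22 for GBP4. In this contrast limma called 0 of 8 with 16 arrays, where 0.00543% of all genes were called, and 0 of 8 with 18, where 0% were; GBP2 had an unadjusted p under 0.05 with 16 arrays, as did 11% of all genes. The difference between the lines in this contrast was tested as an interaction. It was -2.21 ± 0.74 for CXCL10, -1.0 ± 0.33 for CXCL11, -1.09 ± 0.36 for GBP2 and -0.85 ± 0.39 for GBP4 with 16 arrays, each with a limma adjusted p between 0.14 and 0.17. With the second probe set of GBP2 it was -0.34 ± 0.34. Limma called 0 of 8, where 0.0163% of all genes were called, and 4 of 8 had an unadjusted p under 0.05, as did 28.7% of all genes. With 18 arrays it called 0 of 8, where 0% of all genes were called, and 0 of 8 had an unadjusted p under 0.05, where 2.44% of all genes did. With 15 arrays the interaction of CXCL10 was -1.52 ± 0.56 (limma adjusted p = 0.23), and 0 of 8 passed, where 0.0814% of all genes did, while CXCL10, CXCL11, GBP2 and IDO1 had an unadjusted p under 0.05, as did 18% of all genes. With the SD of each array over all probe sets added to the 16-array fit as a covariate, a choice made after the data were seen, the interaction was -0.07 ± 0.30 for CXCL10, -0.33 ± 0.29 for CXCL11, -0.12 ± 0.19 for GBP2 and 0.16 ± 0.26 for GBP4, which turned its sign. Over both lines CD63+ minus MHC1+ gave -0.49 ± 0.37 for CXCL10 and -0.35 ± 0.14 for IRF1 with 16 arrays. At the adjusted threshold limma called 0 of 8 there, where 0.0217% of all genes were called, and 0 of 8 with 18 arrays, where 0.0109% were. IRF1 alone had an unadjusted p under 0.05 with 16 arrays, as did 4.2% of all genes, and none of the 8 did with 18, where 0.402% of all genes did. With 15 arrays CXCL10 was at -0.83 ± 0.28 (limma adjusted p = 0.42), and 0 of 8 passed, where 0.0706% of all genes did, while CXCL10 and IRF1 had an unadjusted p under 0.05, as did 9.23% of all genes.

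**Figure D3:**
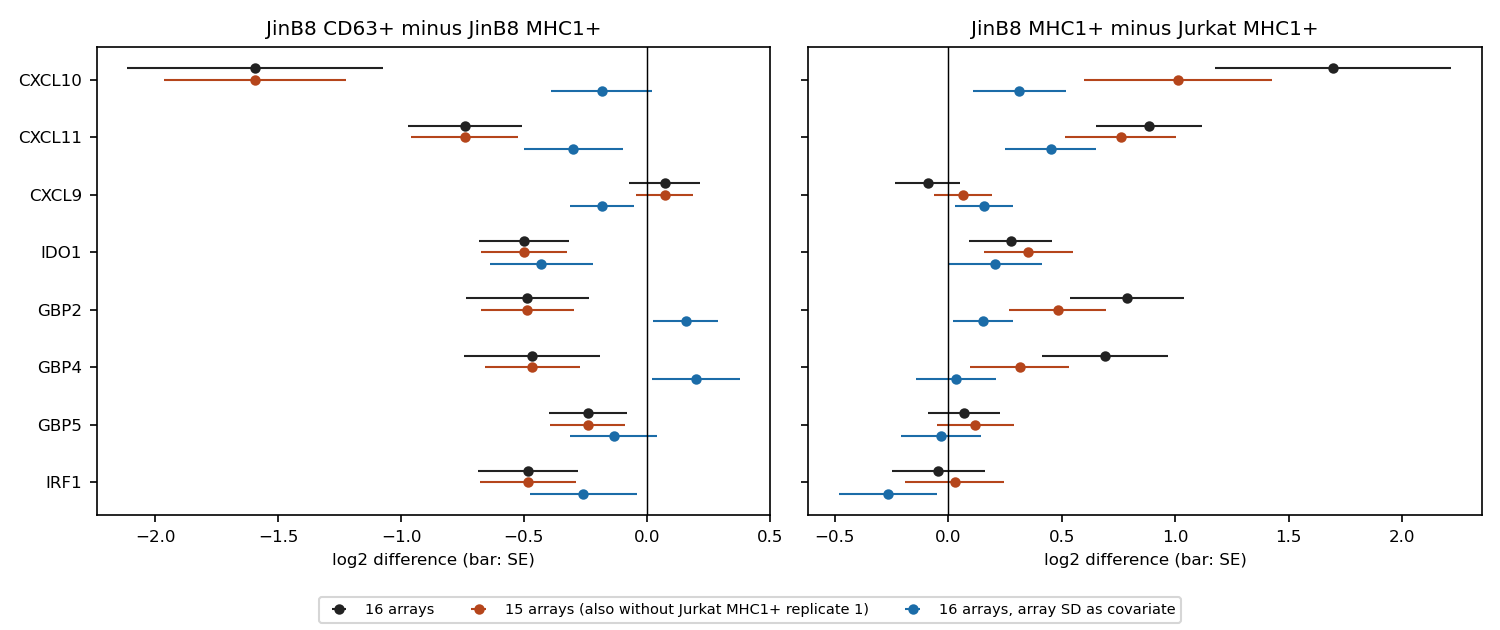
Log2 difference (horizontal axis) of JinB8 CD63+ from JinB8 MHC1+ EVs on the left and of JinB8 MHC1+ from Jurkat MHC1+ EVs on the right, for 8 genes (vertical axis) in 3 fits, with bars for the SE. CXCL10 lies at -1.59 and 1.70 in the 16 arrays, and at -0.18 and 0.31 once the SD of each array is a covariate.

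The level of several of these genes moved with a property of the arrays, their SD over all probe sets, which is a measure of how stretched the values of an array are. Over the 12 EV arrays Pearson's r between the CXCL10 level and the array SD was 0.97 (Spearman's rho 0.96), and it was 0.96 without the 2 arrays farthest from the median SD. Over the 16 arrays it was 0.89 (rho 0.82), and 0.75 without those 2 arrays. GBP2 had r = 0.94 over the EV arrays and 0.93 over the 16, GBP4 0.93 and 0.82, and CXCL11 0.83 and 0.79. IDO1 had 0.42 and 0.46, IRF1 0.41 and 0.43, GBP5 0.34 and 0.36, and CXCL9 -0.71 and -0.71. These are descriptions over arrays that share groups and normalization, with no p. The median r over all genes was -0.25 in the EV arrays and -0.22 in the 16, and an r at least as high as that of CXCL10 was held by 0.271% of genes in the EV arrays and 5.72% in the 16.

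The array SD also differed between the groups. It was 2.12, 2.19 and 2.05 in the JinB8 CD63+ arrays, 2.21, 2.24 and 2.25 in the JinB8 MHC1+ arrays, 2.16, 2.18 and 2.20 in the Jurkat CD63+ arrays and 2.01, 2.14 and 2.21 in the Jurkat MHC1+ arrays. The concordant bead arrays had 2.22 and 2.17, and the concordant untreated arrays 2.15 and 2.20. The groups with the lower CXCL10 levels thus included the arrays with the lowest SD. When the array SD was added to the 16-array fit as a covariate, an alternative chosen after the data were seen, the CXCL10 difference shrank to -0.18 ± 0.21 (SE) between JinB8 CD63+ and MHC1+ EVs. It shrank to 0.31 ± 0.21 between JinB8 and Jurkat MHC1+ EVs. What sets the array SD was not tested. In the same fit CXCL10 fell by 0.85 ± 0.12 in all EV arrays relative to all control arrays (12 against 4; limma adjusted p = 0.00076), and GBP4 fell by 0.45 ± 0.10 (limma adjusted p = 0.045). These were 2 of 8 genes, where 0.999% of all genes were called. CXCL10 also passed the F test over the groups in that fit (limma adjusted p = 0.0058), 1 of 8 genes, where 1.69% of all genes were called. Against the beads alone the covariate fit gave -0.60 ± 0.16 for CXCL10 (limma adjusted p = 0.22) and called 0 of 8, where 0.282% of all genes were called. By group CXCL10 was then at -0.55 with JinB8 CD63+, -0.37 with JinB8 MHC1+, -0.79 with Jurkat CD63+ and -0.68 with Jurkat MHC1+ EVs. In the same sequence GBP4 was at -0.18, -0.38, -0.38 and -0.42, and CXCL11 at -0.34, -0.04, -0.46 and -0.49. JinB8 MHC1+ EVs thus stood apart less in CXCL10 and not in GBP4.

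**Figure D4:**
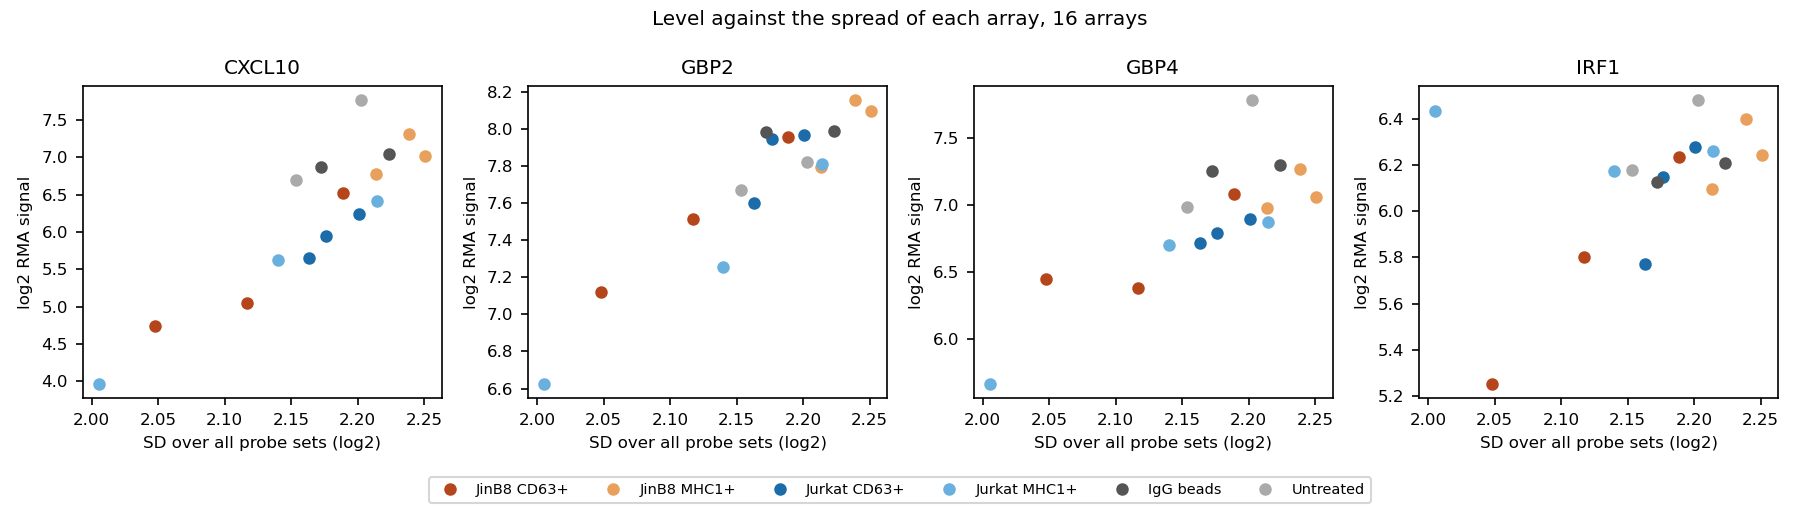
Level of CXCL10, GBP2, GBP4 and IRF1 (vertical axes, log2 scale of RMA) against the SD of each array over all probe sets (horizontal axis), 1 point per array for 16 arrays, coloured by group. CXCL10, GBP2 and GBP4 run upward with the SD (r = 0.89, 0.93 and 0.82), IRF1 less so (r = 0.43).

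The 8 genes did not move as a single block across the 16 arrays. Pearson's r was 0.96 between CXCL10 and GBP4, 0.93 between CXCL10 and CXCL11, 0.88 between CXCL11 and GBP4 and 0.86 between CXCL10 and GBP2. A second pairing was that of IRF1 with GBP5, at 0.82, and of IDO1 with GBP5, at 0.79. IRF1 correlated at 0.48 with CXCL10 and at 0.34 with GBP4. CXCL9 ran opposite to GBP2 at -0.74 and to GBP4 at -0.63. These values are descriptions over arrays that share the array SD described above.

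**Figure D5:**
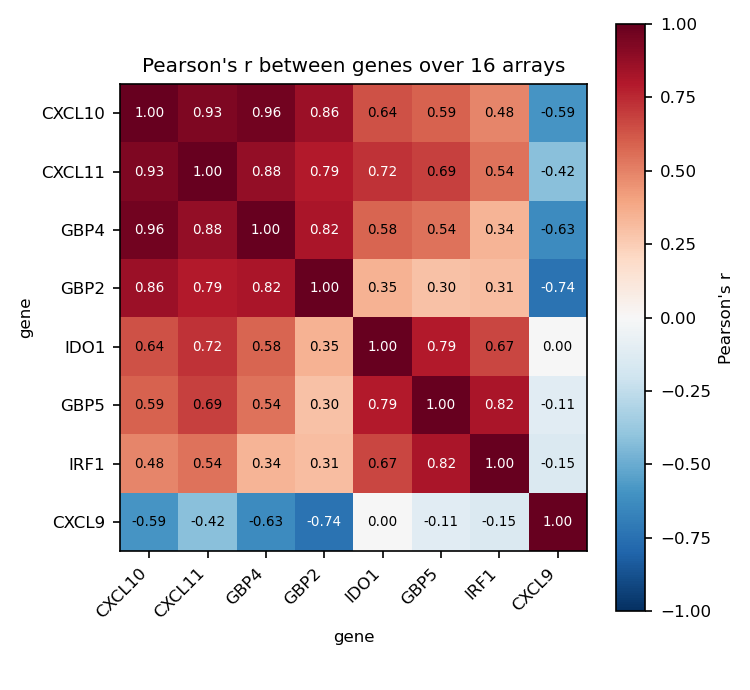
Pearson's r between each pair of 8 genes (both axes) over 16 arrays, from -1 (blue) to 1 (red). CXCL10, CXCL11, GBP4 and GBP2 form a block between 0.79 and 0.96, and CXCL9 has no positive r with any other gene.

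Outside the group, the gene most like the mean of the 8, each centred on its own mean, was RSAD2, which encodes the antiviral protein viperin, with r = 0.97 over the 16 arrays. TLR3, the sensor of double-stranded RNA, PTGS2, the inducible cyclooxygenase, IFIT3, an antiviral RNA-response protein, and RNF114, a ubiquitin ligase, each had r = 0.94. The 5 genes most like GBP4 were CXCL10, HERC5, NRIP1, SAMD9 and ARSB, between 0.95 and 0.96. Those most like IRF1 were POLDIP3, TAPBP, SLC12A7, HLA-L and DCUN1D3, between 0.84 and 0.88. For CXCL10, looked up after its values were seen, they were PTGS2, TLR3, GBP4, RNF114 and ERAP1, between 0.95 and 0.97. Each set of 5 was picked as the highest r of all genes, over arrays that share the array SD described above. Shared regulation was not tested.

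The wider interferon and inflammatory programme was read from 7 further gene lists, and 1 gene in them passed in the 18-array or 16-array comparisons. CCL2, the monocyte chemokine and a target of NF-kB, read 10.65, 11.11 and 10.76 with JinB8 CD63+ EVs, against 11.70, 11.66 and 11.79 with JinB8 MHC1+ EVs. The 3 CD63+ arrays of CCL2 lay below the 3 MHC1+ arrays, where this held for 12.8% of all genes. In the 16-array fit it fell by 0.88 ± 0.14 (SE; limma adjusted p = 0.019), and with 18 arrays the same difference had a limma adjusted p of 1.00. With the array SD as a covariate it was -0.66 ± 0.14 (adjusted p = 0.062). It was 1 of the 13 measured NF-kB targets of endothelium, in a contrast where 0.185% of all genes were called, and the list's median there was -0.23, beside 0.03 over all genes.

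The type I interferon-stimulated genes, 28 of 28 measured, had 0 members called in any comparison with 18 or 16 arrays. Their median between all EV groups and beads was 0.85 with 18 arrays, beside -0.06 over all genes, and -0.28 with 16 arrays, beside 0.01. Unadjusted p was under 0.05 for 0 of 28 with 18 arrays and for 7 of 28, all negative, with 16 arrays. The shares of all genes at that p were 3.83% with 18 arrays and 3.21% with 16. The mean level of the list was 8.62 to 9.40 in the 12 EV arrays, 9.25 to 9.57 in the 4 concordant controls and 5.96 to 6.22 in the 2 discordant controls. The EV range thus overlapped the concordant range, and the discordant arrays lay far below. MX2, an antiviral GTPase, had a 16-array difference of -0.45 ± 0.14 (limma adjusted p = 0.92) between EVs and beads, MX1, its relative, -0.36 ± 0.11 (adjusted p = 0.92), and IFI27 0.07 ± 0.12 (adjusted p = 1.00). Between JinB8 CD63+ and MHC1+ EVs the list had a median of -0.48 with 27 of 28 negative and 17 at an unadjusted p under 0.05, where 16.6% of all genes had such a p, beside a median of -0.48 for the 8 interferon-inducible genes. Between JinB8 and Jurkat MHC1+ EVs its median was 0.35 with 25 of 28 positive and 11 at an unadjusted p under 0.05, where 29.6% of all genes had such a p, beside a median of 0.48 for the 8 genes. Both medians include Jurkat MHC1+ replicate 1.

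The other lists covered the upstream and parallel arms. Of the interferon receptors and signalling genes 18 of 20 were measured, and their median between EVs and beads was -0.07 with 16 arrays. IFNGR1, the ligand-binding chain of the interferon gamma receptor, was at 0.94 ± 0.28 between JinB8 and Jurkat MHC1+ EVs (limma adjusted p = 0.094). BATF2, a transcription factor, was at -0.53 ± 0.18 there (adjusted p = 0.11), and PTPN2, a phosphatase of the pathway, at 0.28 ± 0.21. In Jurkat MHC1+ replicate 1 IFNGR1 read 6.22, against 7.51 and 7.72 in the other arrays of its group. BATF2 read 7.35 in that array, against 6.89 and 6.42, and PTPN2 4.84, against 5.63 and 5.48. The other targets of interferon gamma, 28 of 30 measured, had a median of -0.09 between EVs and beads, with IFI30, a lysosomal thiol reductase, at -0.17 ± 0.14, PLAAT4 at -0.18 ± 0.14 and TNFSF10, the death ligand TRAIL, at -0.61 ± 0.28. Of the CXCR3 axis and other CXC chemokines 14 of 15 were measured, with a median of -0.02. CXCL8, the neutrophil chemokine, differed by -0.88 ± 0.17 between JinB8 CD63+ and MHC1+ EVs (limma adjusted p = 0.057), CCL5 by -0.59 ± 0.16 and CXCL1 by -0.54 ± 0.14. The tryptophan and kynurenine genes, all 16 measured, had a median of 0.03 between EVs and beads. KYAT1, a kynurenine aminotransferase, was at -0.06 ± 0.13, SLC7A5, the large neutral amino acid transporter, at -0.31 ± 0.12 and QPRT, an enzyme of NAD synthesis, at 0.38 ± 0.12. The related GTPases outside the 9, 5 of 7 measured, had a median of -0.18, with GBP7 at -0.44 ± 0.11, ATL1 at -0.15 ± 0.12 and ATL3 at -0.18 ± 0.35. Apart from CCL2, limma called 0 members of these 7 lists in any of the 14 comparisons or the F test with 16 or 18 arrays. In the 16-array F test an unadjusted p under 0.05 was held by 14 of 28 type I genes, 8 of 28 other interferon gamma targets, 5 of 13 NF-kB targets, 4 of 14 chemokine genes, 3 of 16 tryptophan genes, 1 of 18 signalling genes and 1 of 5 related GTPases, beside 8.07% of all genes. The covariate fit, which called CXCL10 and GBP4 between all EV and all control arrays, called genes of these lists there too. They were 4 of 28 other interferon gamma targets, 2 of 28 type I genes, 2 of 13 NF-kB targets, 1 of 16 tryptophan genes and 1 of 5 related GTPases, all lower with EVs, where 0.999% of all genes were called. Among the genes named here TNFSF10 fell by 0.58 ± 0.09 (SE; limma adjusted p = 0.0014) and MX2 by 0.51 ± 0.08 (adjusted p = 0.0019) in that fit. GBP7, IFI30, MX1 and SLC7A5 also fell, by 0.38, 0.41, 0.36 and 0.37, with limma adjusted p between 0.015 and 0.045. The covariate fit also called GBP7 between JinB8 CD63+ EVs and beads, at -0.68 ± 0.13 (limma adjusted p = 0.017), where 0.434% of all genes were called. Between CD63+ and MHC1+ EVs over both lines it called CCL2, at -0.45 ± 0.08 (limma adjusted p = 0.0097), CXCL1 at -0.46, CXCL8 at -0.35 and 3 of 28 type I genes, all lower with CD63+ EVs, where 4.01% of all genes were called.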

How the data were processed

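Total RNA of HUVEC from 6 groups of 3 was measured on Affymetrix arrays. The deposited log2 values had been normalized by the authors with RMA in Affymetrix Expression Console, per the submitters' processing notes; that they are log2 was read from their range. The genome build behind the probe sets is not given in the sources used here. For RNA extraction the labels name Trizol with RNeasy, while the series' design text names a miRNA kit. Arrays give no read depth, so the number of arrays limits the precision.

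Of 33297 probe sets, 19460 carried 1 gene symbol, 1754 several and 12083 none; the brightest probe set per symbol gave 18417 genes, and 769 genes had more than 1. Differences were fitted with limma 3.58.1 (R 4.3.3; lmFit and eBayes) over all 6 groups, without a block, in 14 comparisons and an F test, and adjusted over all genes by Benjamini-Hochberg with a threshold of 0.05; the fit was tested on simulated data. No filter on low values was applied in the fits with 18, 16 or 15 arrays. Tables were made with pandas 2.3.3 and numpy 2.4.6 under Python 3.11.15, figures with matplotlib 3.10.9. No scan date or other batch was used here.

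Named were the 9 members and, from each list, genes called with 18 or 16 arrays or otherwise up to 3 with the smallest F test p in 16 arrays, with the 5 genes most alike by Pearson's r. The members and lists were chosen with earlier results of these data known. Alternatives were the array sets above, each array left out in turn, a second quantile normalization, median centring, trend and robust fits, array weights, low-level filters of 25% and 50%, every probe set as its own row, only the groups compared and, added after the data were seen, the array SD as covariate.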

Additional observations from a re-analysis of the deposited data

How the results depend on the processing

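With 18 arrays 0 of 8 genes were called in each of the 14 comparisons and in the F test, and 421 recomputed counts stayed at 0, while 17 did not. The 17 came from 3 settings. Array weights, whose estimate did not converge (weights 0.00514 to 695, and 17584 of 18417 genes called in the F test), called 8 in the F test, 5 between all EVs and beads, 5 between all EVs and all controls, 4 each for Jurkat CD63+, Jurkat MHC1+ and JinB8 CD63+ EVs against beads, 1 for JinB8 MHC1+ EVs against beads and 6 between beads and untreated cells. They called 1 between JinB8 and Jurkat EVs over both captures, 5 within MHC1 capture, 5 between CD63+ and MHC1+ EVs over both lines, 2 within Jurkat, 6 within JinB8 and 5 in the interaction. The 15 arrays called 1, CXCL10 between JinB8 CD63+ and MHC1+ EVs. The array SD as covariate called 1 in the F test and 2 between all EVs and all controls.

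In the 6 comparisons set out per gene (EVs against beads, beads against untreated cells, JinB8 against Jurkat within each capture and CD63+ against MHC1+ within each line), differences with no call took the opposite sign as follows. Reversals with 16 arrays in single EV groups against beads and in all EVs against all controls stand in the text of those comparisons for GBP4, GBP2 and CXCL11, and also occurred for CXCL9 and IRF1. With 16 arrays, EVs minus beads was 0.032 for CXCL9, -0.33 for GBP2 and -0.54 for GBP4, and beads minus untreated was -0.00297 for CXCL11 and -0.16 for IRF1. A second quantile normalization gave 0.039 for CXCL9 between JinB8 and Jurkat MHC1+ EVs, -0.068 for CXCL9 between JinB8 CD63+ and MHC1+ EVs, and 0.10 for CXCL9 and 0.16 for CXCL10 between EVs and beads. The covariate gave, between JinB8 and Jurkat CD63+ EVs, 0.24 for CXCL10, 0.12 for CXCL11, 0.038 for GBP2, 0.19 for GBP4 and 0.045 for GBP5, and between JinB8 and Jurkat MHC1+ EVs 0.16 for CXCL9 and -0.033 for GBP5. It gave -0.11 for CXCL10 and -0.030 for IDO1 between Jurkat CD63+ and MHC1+ EVs, and -0.18 for CXCL9, 0.16 for GBP2 and 0.20 for GBP4 between JinB8 CD63+ and MHC1+ EVs. It gave -0.14 for GBP2 and -0.34 for GBP4 between EVs and beads, and 0.0071 for CXCL9, -0.077 for CXCL11 and -0.20 for IRF1 between beads and untreated cells. The cause was not tested.

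Leaving out each of the 18 arrays in turn called 0 to 0 genes in all 15 counts, and 29 of 48 differences kept their sign. Of the other 19, EVs minus beads ranged from -0.11 to 0.032 for CXCL9, -1.02 to 0.49 for CXCL10, -0.47 to 0.16 for CXCL11, -0.33 to 1.31 for GBP2 and -0.54 to 0.93 for GBP4. Beads minus untreated ranged from -0.47 to 0.055 for CXCL9, -1.25 to 0.76 for CXCL10, -0.42 to 0.87 for CXCL11, -0.12 to 0.29 for IRF1, -0.85 to 1.26 for GBP2, -1.07 to 0.59 for GBP4 and -0.26 to 0.00337 for GBP5. JinB8 minus Jurkat ranged within CD63 capture from -0.35 to 0.073 for CXCL11 and -0.14 to 0.11 for GBP5, and within MHC1 capture from -0.21 to 0.065 for CXCL9, -0.12 to 0.032 for IRF1 and -0.00129 to 0.17 for GBP5. CD63+ minus MHC1+ within Jurkat ranged from -0.069 to 1.16 for CXCL10 and -0.083 to 0.11 for IDO1. No paired analysis was possible because the labels give no replicate numbers shared between groups. Each control group kept 2 arrays once replicate 3 was left out, and CXCL9, IDO1 and GBP5 had low signal, which limits what their differences can show.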
